A study of Arabidopsis thaliana with 2 samples.

Results

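Of the 1996 nuclear peaks bound by PLETHORA3 (PLT3) in DNA affinity purification and sequencing (DAP-seq), 261 lay far from the start of any protein-coding gene. They were in sequence where no non-coding gene or pseudogene is annotated, and 48 of them were inside long protein-coding genes. A peak was included if its centre was more than 4000 bp from the transcription start site (TSS) of every protein-coding gene of Arabidopsis and was not inside an annotated non-coding gene or pseudogene. These gene-distal peaks made up 13.1% of the nuclear peaks (95% Wilson interval 11.7% to 14.6%). A further 292 peaks were equally far from a TSS but inside a non-coding gene or pseudogene, and 1443 were within 4 kb of a TSS. The rule used positions only, not the strength of binding or the sequence.

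The DNA was extracted from whole Col-0 roots, harvested at 5 days post-germination. This DNA was incubated with 3xFLAG-PLT3 made in vitro for 1 library, and with 3xFLAG-EGFP, a fluorescent protein without a known DNA-binding sequence, for a negative control library. For each protein 200 ng of sequencing library made from this DNA was added to the binding reaction. Anti-FLAG beads recovered the bound fragments, and these were amplified over 20 cycles. There were no replicates, the depth of the libraries is unknown, and every comparison below is between peaks, or between windows beside a peak, within the PLT3 library.

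PLT proteins are transcription factors of the APETALA2 family that maintain stem cells in the root and shoot meristems. They bind DNA through a pair of AP2 domains, which contact a long and variable sequence. In DAP-seq the DNA is free of chromatin, although cytosine methylation, which is dense in silent sequence and can affect binding, is kept, and a peak shows binding to that sequence in vitro but not occupancy in the root.

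The sequence that PLT3 bound is seen best at the summits of the gene-distal peaks with the highest-scoring sites. These sites were found with a matrix of 16 positions learnt only on the other 1735 nuclear peaks. Each stretch below is read 5′ to 3′ on the strand of the site, with the 16 bases of the site in capitals and 10 bases of TAIR10 sequence on either side in lower case. The names give the position of the whole stretch and its strand.
chr4:11165081-11165116 (+), in the gene TPP2: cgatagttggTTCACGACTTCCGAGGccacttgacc
chr3:15108092-15108127 (+): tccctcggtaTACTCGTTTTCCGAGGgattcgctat
chr5:12188688-12188723 (−): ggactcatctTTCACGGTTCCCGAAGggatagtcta
chr5:12755369-12755404 (−): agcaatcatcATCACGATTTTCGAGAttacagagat
chr3:13343408-13343443 (+): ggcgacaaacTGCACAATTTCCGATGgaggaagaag
chr1:9919815-9919850 (+): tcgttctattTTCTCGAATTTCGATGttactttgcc

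Of these 6 sites 5 match NNNNCNNNTNNCNANG, in which the letters mark the positions where the matrix was least variable. Searched on both strands, this pattern was present in the 100 bp at the summit of 69 gene-distal peaks (26.4%), in 35.0% of all nuclear peaks and in 9.18% of all windows of 100 bp in the nuclear genome. In the matrix, C had a share of 81.2% at position 5 and 91.8% at position 12, T had 67.7% at position 9, A had 86.5% at position 14 and G had 62.4% at position 16. The remaining positions were less fixed, and position 7 held each of the 4 bases in at least 16.9% of sites. The site in TPP2 scored 15.3 bits, and its centre was 5.5 bp from the summit of a peak with a fold enrichment of 11.7.

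A learnt site was present in the 100 bp around the summit in 144 of the 261 gene-distal peaks (55.2%, 49.1% to 61.1%). In windows of the same length 500 bp downstream, a site was found beside 15 peaks (5.75%, 3.51% to 9.26%). The threshold of 8.52 bits had been set so that 5% of such downstream windows of the training peaks passed it. In 136 peaks a site was present at the summit alone and in 7 in the downstream window alone, a difference that was significant in a two-sided exact binomial test (p = 3.95e-32). With adjustment over the 2 tests made on these peaks, this p became 7.90e-32. These tests treat peaks as independent, although many share sequence, as described below. The downstream windows were not matched to the summits in GC content, which had a median of 44% at the summit and 36.5% in the windows to either side. How much of the difference in sites goes with GC content was not tested.

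The sites clustered at the summit. The centre of the site was a median of 5.5 bp from the summit, and 110 of the 144 sites (76.4%) had their centre within 20 bp. The sites held 131 different sequences, and 65 were on the plus strand. Fold enrichment, the ratio of signal to local background at the summit, had a median of 5.29 (quartiles 4.27 and 7.35) in peaks with a site and 4.55 (3.94 and 5.72) in the 117 peaks without one, and the quartile ranges overlapped. This difference was not tested.

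**Figure D1:**
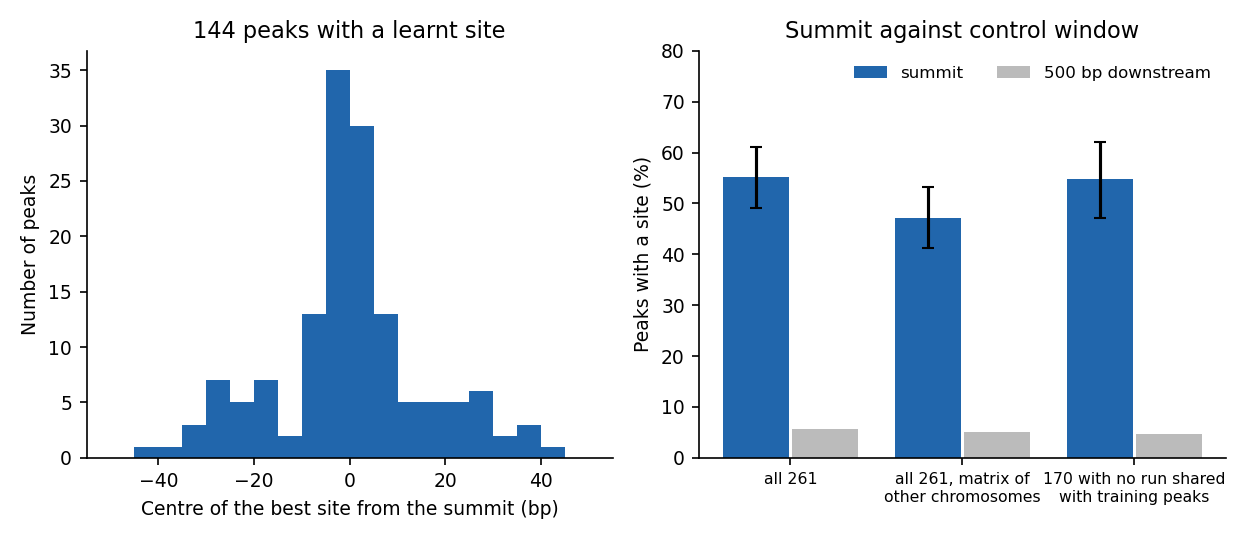
Left, number of gene-distal peaks by the distance in bp from the summit to the centre of the learnt site, for the 144 peaks with a site, in bins of 5 bp. Right, share of peaks (%) with a site at the summit and in the window 500 bp downstream, for all 261 peaks, for the same peaks with a matrix learnt on other chromosomes (47.1% and 4.98%), and for the 170 peaks without a run of 20 bases in common with a training peak (54.7% and 4.71%). Error bars are 95% Wilson intervals.

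To set the gene-distal peaks beside the other peaks, a matrix was learnt on chromosomes 1, 3 and 5 and applied to chromosomes 2 and 4, and the reverse, so that no peak was scored by a matrix learnt on its own chromosome. By this measure 56.8% of all nuclear peaks had a site. The gene-distal peaks had one in 123 cases (47.1%, 41.2% to 53.2%), the distal peaks inside non-coding genes in 160 (54.8%, 49.1% to 60.4%), and the peaks near a TSS in 850 (58.9%, 56.3% to 61.4%). The interval of the gene-distal peaks lay below that of the peaks near a TSS. The difference was not tested. Most of the fall from 55.2% to 47.1% came from a single group of 24 peaks with shared sequence, in which 18 had a site by the first matrix and 3 by the matrices of other chromosomes. Among the 237 gene-distal peaks outside this group, the shares were 53.2% (46.8% to 59.4%) and 50.6% (44.3% to 56.9%).

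The summits were richer in GC than the sequence beside them. The median GC content was 44% in the 100 bp at the summit and 36.5% in the windows 500 bp to either side, with a median difference of 7 percentage points. It was higher at the summit in 195 peaks and lower in 63 (two-sided exact sign test, p = 7.01e-17, the same after adjustment over the 2 tests). All sequence that meets the rule had a GC content of 34.3%. At their summits, the peaks near a TSS had a median of 44% and the distal peaks inside non-coding genes a median of 48%. The range among the gene-distal peaks was wide, from 17% to 67%.

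**Figure D2:**
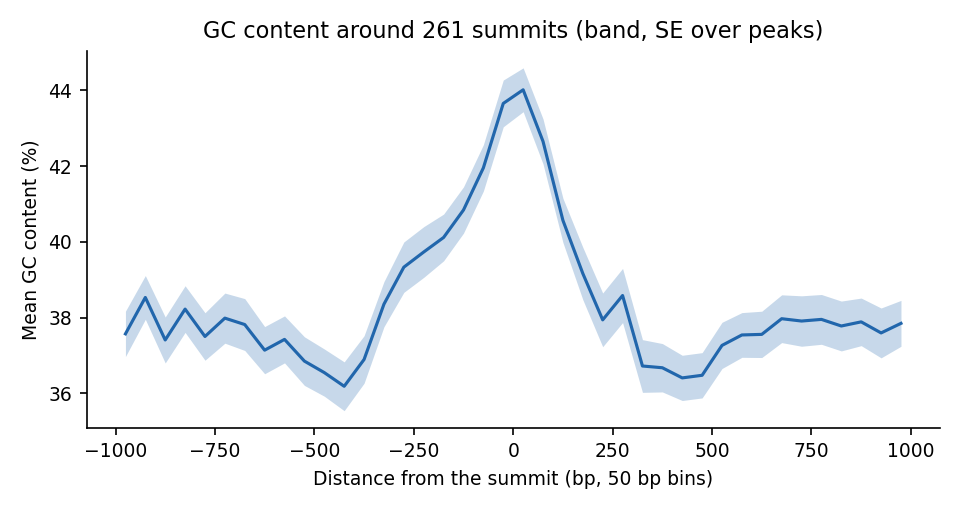
Mean GC content (%) of the 261 gene-distal peaks in bins of 50 bp by distance from the summit (bp). The band shows the SE over peaks. The mean reached 44.0% just downstream of the summit and fell to between 36 and 37% at 425 bp on either side.

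The median strength of the gene-distal peaks was near that of the other nuclear peaks, and some of the strongest nuclear peaks were among them. Their median fold enrichment was 4.96 (95% interval of the median 4.68 to 5.16), against 4.73 (4.63 to 4.80) in the peaks near a TSS and 4.76 (4.64 to 4.98) in the distal peaks inside non-coding genes. The lowest value was 2.56, the quartiles were 4.13 and 6.58, and the highest was 24.5. A fold enrichment of 10 or more was reached by 4.96% of all nuclear peaks and by 19 gene-distal peaks (7.28%). A q-value of 1e-05 or less was reached by 47.3% of all nuclear peaks and by 139 gene-distal peaks (53.3%). Of the 10 nuclear peaks with the largest fold enrichment 4 were gene-distal, as were 5 of the 10 with the largest −log10 q.

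The distances from protein-coding TSSs varied over more than an order of magnitude. The nearest protein-coding TSS was a median of 9099.5 bp away (quartiles 5119.5 and 18676 bp), 125 peaks were over 10 kb from any TSS and 8 over 50 kb. The farthest peaks were at chr3:13884039-13884556, 137095 bp from a TSS with a fold enrichment of 5.72, chr3:13893122-13893558 at 128052 bp and 4.55, and chr3:13909732-13909887 at 111583 bp and 4.95. They were followed by chr5:11459485-11459867 at 79768.5 bp, with a fold enrichment of 6.34, and chr3:14387977-14388465 at 59498.5 bp, with 7.87. Of these 5 peaks, the one on chromosome 5 alone had a learnt site. Closest to the limit, just inside it, were chr3:15960172-15960449 at 4064 bp, with a fold enrichment of 3.90, and chr1:7944761-7944982 at 4066 bp, with 4.08. Just outside it, among peaks near a TSS, were chr2:12853583-12853751 at 3948.5 bp, with 2.69, and chr3:17063660-17064009 at 3938 bp, with 4.26.

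**Figure D3:**
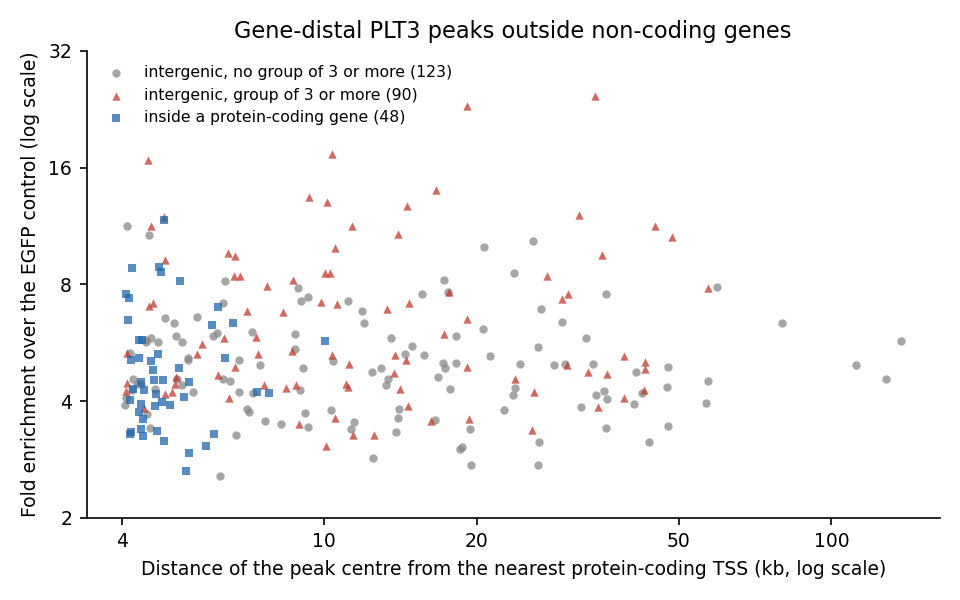
Fold enrichment over the EGFP control (log scale) of each gene-distal peak against the distance of its centre from the nearest protein-coding TSS in kb (log scale). Red triangles are intergenic peaks in groups of 3 or more with shared sequence, grey circles other intergenic peaks and blue squares peaks inside protein-coding genes, whose median distance is 4674.5 bp and largest 10050.5 bp. The 4 peaks above 16 are all triangles.

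Gene-poor sequence, which the rule itself favours, held most of these peaks. Sequence meeting the rule made up 11.2 Mb, or 9.43% of the known nuclear genome, and held 23.3 gene-distal peaks per Mb, whereas all nuclear peaks occurred at 16.8 per Mb of nuclear genome. Windows of 100 kb with fewer than 10 protein-coding TSSs, which cover 13.4% of the genome, held 26.8% of all nuclear peaks. They held 168 gene-distal peaks (64.4%, 58.4% to 69.9%), 81.8% of the distal peaks inside non-coding genes and 8.80% of the peaks near a TSS. Of the sequence that the gene-distal peaks could lie in, 55.9% was in such windows. Per Mb of that sequence, the number of peaks was 20.8 on chromosome 1, 22.0 on chromosome 2, 27.4 on chromosome 3, 23.2 on chromosome 4 and 23.1 on chromosome 5.

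Pseudogenes lay beside many of the intergenic peaks. Arabidopsis pseudogenes far from protein-coding genes are largely the remains of transposable elements, and the annotation used here gives their position but not their kind. The centre of 134 peaks (51.3%, 45.3% to 57.3%) was within 1 kb of a pseudogene, with 66 upstream of its start and 68 downstream of its end. Of the sequence that meets the rule, 34.2% was within 1 kb of a pseudogene. Among the bins of 200 bp, the number of peaks per Mb was largest at 400 to 600 bp downstream. Between 400 and 600 bp downstream of a pseudogene lay 26 peaks (9.96%, 6.89% to 14.2%) in 3.22% of the sequence, or 72.1 peaks per Mb. At the same distance upstream lay 18 peaks (6.90%, 4.41% to 10.6%) in 3.42% of the sequence. In the 200 bp directly downstream there were 11 peaks (4.21%) in 4.99% of the sequence. These counts and intervals treat peaks with shared sequence as separate. Of the groups described below, the second had 21 of its 22 peaks within 1 kb downstream of a pseudogene. Its median distance to the nearest non-coding gene was 539 bp. The fourth group had 6 of its 11 peaks within 1 kb downstream. The downstream counts are thus in part counts of copies of the same sequences.

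**Figure D4:**
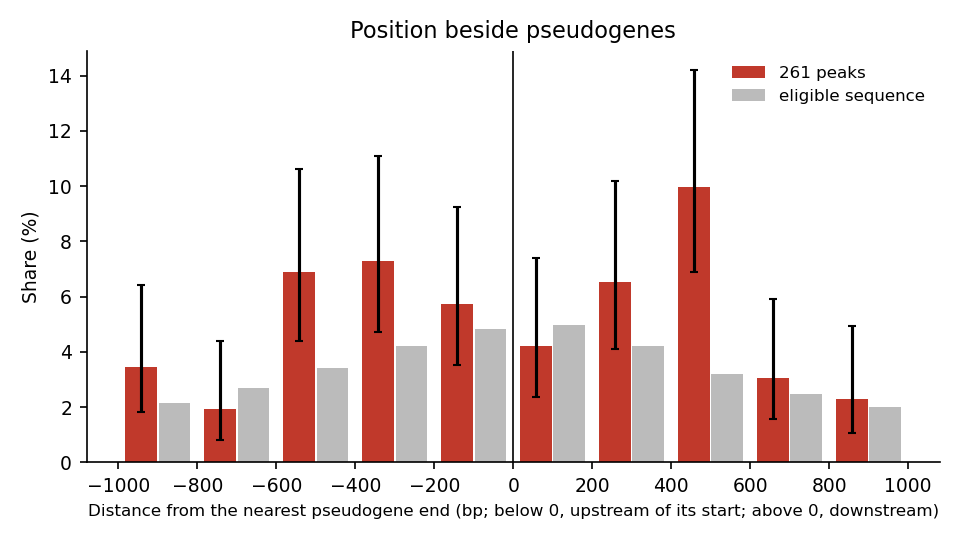
Share (%) of the 261 gene-distal peaks (red) and of all sequence that meets the rule (grey) by distance in bp from the end of the nearest pseudogene, in bins of 200 bp up to 1000 bp on either side. Values below 0 are upstream of the pseudogene. Error bars are 95% Wilson intervals, which treat peaks with shared sequence as separate. The red bar at 400 to 600 bp downstream reaches 9.96%, against 3.22% of the sequence.

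Much of this was sequence that occurs in several copies. Around the summit, 105 gene-distal peaks (40.2%, 34.5% to 46.3%) had a run of 20 bases in common with another gene-distal peak in the 200 bp at their summits, and 91 of them formed 9 groups of 3 or more that were linked by such runs. With any nuclear peak, 124 shared a run (47.5%), against 25.6% of all nuclear peaks. In the median gene-distal peak 17.7% of the runs at the summit occurred elsewhere in the genome, compared with 0.552% in peaks near a TSS and 22.7% in distal peaks inside non-coding genes. At the other end, 51 gene-distal peaks had no repeated run. The authors removed reads with a mapping quality below 30, so the fold enrichment of repeated sequence rests on the reads that could be placed, and its true level is not known.

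**Figure D5:**
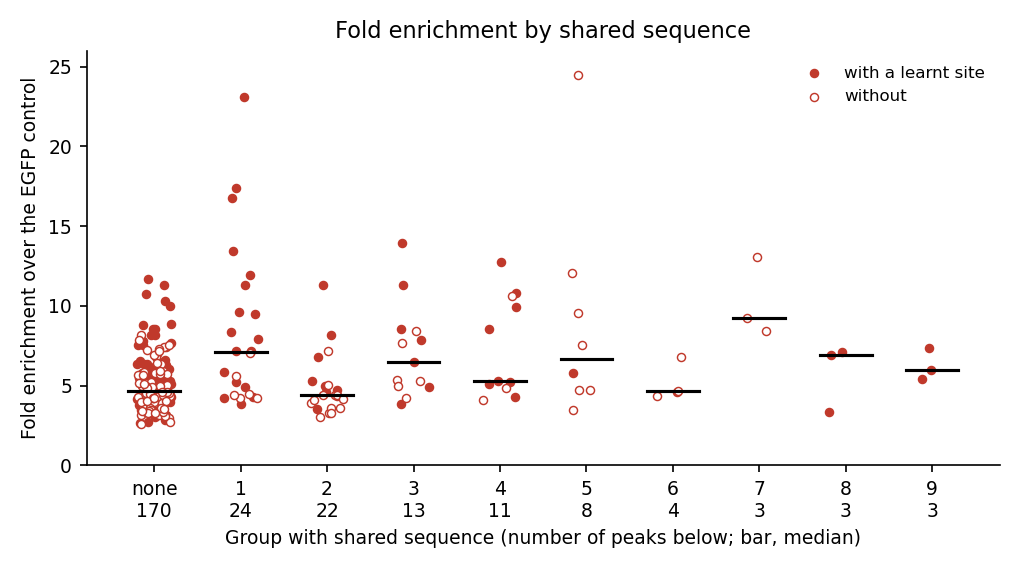
Fold enrichment over the EGFP control of each gene-distal peak, for the 170 peaks in no group of 3 or more and for the 9 groups with shared sequence, numbered by size. Filled points have a learnt site, open points have none and bars are medians. The 3 strongest peaks fall in groups 5 and 1, at 24.5, 23.1 and 17.4.

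The largest group, of 24 peaks on chromosomes 1, 2, 3 and 5, carried a common stretch. Its summits had a median GC content of 40%, between the 44% of all gene-distal peaks and the 34.3% of all sequence that meets the rule. Without the group, GC was higher at the summit in 173 peaks and lower in 61, against 195 and 63 with it. The stretches of 4 of the group's peaks are shown, with the best-scoring 16 bases in capitals. They were taken from peaks of the group with like best-scoring bases, as those with the largest −log10 q. The likeness of the printed sites thus follows from the choice. Of these peaks 3 are among the 10 of the nuclear list with the largest fold enrichment.
chr3:14002258-14002293 (+): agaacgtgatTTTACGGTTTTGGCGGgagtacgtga
chr1:16253407-16253442 (−): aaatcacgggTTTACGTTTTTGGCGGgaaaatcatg
chr3:11587795-11587830 (+): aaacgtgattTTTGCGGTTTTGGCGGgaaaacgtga
chr1:22106045-22106080 (+): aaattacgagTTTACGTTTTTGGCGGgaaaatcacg
Their peaks, in this order, had fold enrichments of 23.1, 17.4, 16.8 and 13.4. The sites scored only 8.84, 8.58, 8.72 and 8.58 bits, barely above the threshold. At position 12, the most fixed of the matrix, the base was C in 2 of the 18 sites of this group and in 125 of the 126 sites of the other gene-distal peaks. The letters TTTGGCGGGAAA, searched on both strands after the group had been seen, are of the type bound by E2F proteins, transcription factors of the cell cycle. They were present in 22 of the 24 summit windows of 200 bp, in 23 of all 261 gene-distal peaks (8.81%), in 121 of the 1996 nuclear peaks (6.06%) and in 786 of 595730 windows of that length across the nuclear genome (0.132%). Whole peaks of this group held between 0 and 13 copies of the letters, with a median of 4. The 11 peaks with 5 or more copies had a median fold enrichment of 9.47 and the 13 with fewer copies one of 4.89. The values overlapped, since the peak at 23.1 held 3 copies, and across the 24 peaks Pearson's r between log2 fold enrichment and copies was 0.39 (Spearman's rho 0.40). The number of copies also followed the width of the peak (r = 0.68).

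The run of 20 bases most often shared within this group, ATTTTCCCGCCAAAAACGTA, occurred 385 times in the nuclear genome, in 80 clusters of up to 11 copies. Of these clusters 70 held a PLT3 peak. Of the 70 nuclear peaks that contained the run, 11 were gene-distal, 55 were near a TSS and 4 were inside non-coding genes. For comparison, 261, 1443 and 292 of the 1996 nuclear peaks fell in these classes. The median fold enrichment of the group was 7.10, with a range from 3.84 to 23.1.

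The peaks of the second group, of 22, lay in like positions. Of these peaks 21 were within 1 kb downstream of a pseudogene, and for the group the distance to the nearest non-coding gene had a median of 539 bp and the length of that gene one of 4382 bp. They were weaker, with a median fold enrichment of 4.40 and a range from 3.06 to 11.3, and 9 had a learnt site. The strongest, chr1:15805622-15806353, was 485 bp downstream of the pseudogene AT1G42320. The next sequences fall on both sides of the threshold for a site.
chr5:13373014-13373049 (−): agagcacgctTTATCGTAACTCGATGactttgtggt
chr5:9891536-9891571 (−): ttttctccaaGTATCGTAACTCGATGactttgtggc
chr5:12181471-12181506 (+): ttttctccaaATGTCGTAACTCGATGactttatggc
chr3:12484832-12484867 (+): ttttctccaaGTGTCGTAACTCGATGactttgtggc
The sites, in capitals, were picked for their likeness to one another, so that they are nearly the same follows from the choice. Other peaks of the group had other best-scoring bases, the strongest peak included. The printed sites scored 8.94, 9.35, 7.32 and 8.21 bits, against a threshold of 8.52 bits. The peaks of these printed sites had fold enrichments of 8.19, 5.30, 5.03 and 4.42. A run of this group, ACAAAGTCATCGAGTTACGA, occurred 28 times in the genome, and 16 of these copies held a peak.

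The third group of 13 peaks was the richest in GC, with a median of 56%. It lay on the other side of pseudogenes, with 12 peaks within 1 kb upstream of a start and a median distance of 461.5 bp. Of the 13 peaks 10 came in 5 pairs, in which a copy of the same sequence in the same orientation was 9261 bp away on chromosome 1, 11038 bp on chromosome 3, 10084 and 8971 bp on chromosome 4 and 4708 bp on chromosome 5. Within pairs the strength was in some cases similar, with fold enrichments of 8.39 and 7.65 on chromosome 3, and in others not. At chr4:1679751-1680468 the fold enrichment was 14.0 and at its partner chr4:1669913-1670485 it was 4.90, and both had a high-scoring site, of 13.4 and 13.2 bits.
chr4:1680128-1680163 (+): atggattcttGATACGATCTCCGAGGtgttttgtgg
chr4:1670044-1670079 (+): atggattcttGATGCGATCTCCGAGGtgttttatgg
The median fold enrichment of this group was 6.51, and 7 of its 13 peaks had a site.

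The fourth group of 11 peaks joined dispersed and tandem copies. In 6 peaks on chromosomes 1, 2 and 3, the centre was between 460 and 729.5 bp downstream of a pseudogene of about the same length in every case, from 2121 to 2332 bp. All 6 had a site and their fold enrichments ranged from 5.11 to 12.8. The stretches below are from 3 of them, picked for the likeness of their sites.
chr3:12461943-12461978 (−): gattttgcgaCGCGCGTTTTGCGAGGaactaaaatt
chr1:15950687-15950722 (−): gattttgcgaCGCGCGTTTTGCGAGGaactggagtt
chr2:5822087-5822122 (+): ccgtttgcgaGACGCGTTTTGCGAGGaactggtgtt
The other 5 peaks lay in a tandem array between chr4:1702345 and chr4:1735626, with the nearest direct copy 1912 to 1949 bp away. Their fold enrichments ranged from 4.08 to 10.6, and 2 had a site.

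The strongest of the nuclear peaks was in the fifth group and had no learnt site. At chr2:5202938-5204154 the fold enrichment was 24.5 and −log10 q was 148, against 73.0 for the nuclear peak with the next largest value. Its summit was rich in A and T, with a GC content of 31%, and every run of 20 bases there occurred elsewhere. It was 1 of 6 peaks within 7005 bp (chr2:5198592-5205596), a region with no other nuclear peak, where a run occurred 9 times, 8 of them inside a peak. Of the intervals between neighbouring copies of the run 6 were 745 to 747 bp. The shortest was 603 bp, across a stretch of 60 unknown bases, and 1 interval was 1492 bp. The 6 peaks, from left to right, had fold enrichments of 7.56, 12.1, 4.74, 24.5, 9.54 and 4.71. The sequence around the run, in capitals, was almost identical between them and was also present in 1 peak on chromosome 4.
chr2:5203118-5203157 (−), fold enrichment 24.5: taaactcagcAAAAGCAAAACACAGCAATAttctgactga
chr2:5201023-5201062 (−), fold enrichment 12.1: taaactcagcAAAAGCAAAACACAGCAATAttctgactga
chr2:5202372-5202411 (−), fold enrichment 4.74: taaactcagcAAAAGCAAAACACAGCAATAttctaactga
chr4:4473432-4473471 (−), fold enrichment 5.82: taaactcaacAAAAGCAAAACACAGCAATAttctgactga
The 6 peaks on chromosome 2 all held the same 20 bases at the run, at fold enrichments from 4.71 to 24.5. None of their best-scoring 16 bases passed the threshold. In 2 of them, the strongest included, these were GCTGAGTTTATCGAGA beside the run, at 7.31 bits, and in the other 4 they were other letters, at 7.24 or 7.25 bits. Those of the copy on chromosome 4, GTTGAGTTTATCGAGA, reached 9.20 bits and passed.

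The smaller groups also differed in fold enrichment and in the presence of a site. Group 6 had 4 peaks, 1 of them with a site, and a median fold enrichment of 4.64. Group 8 had 3 peaks, all with a site, at fold enrichments from 3.37 to 7.12. All 3 peaks of group 7, on chromosome 2, were strong, with fold enrichments of 8.42, 9.22 and 13.1, and none had a site. In group 9 all 3 had a site at the summit, with fold enrichments of 7.33, 5.96 and 5.39 in the order shown, which follows the score (15.1, 13.2 and 12.6 bits).
chr5:12755369-12755404 (−): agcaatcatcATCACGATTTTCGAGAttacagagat
chr5:12767531-12767566 (−): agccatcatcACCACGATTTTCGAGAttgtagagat
chr4:4723498-4723533 (−): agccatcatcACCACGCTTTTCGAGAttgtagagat
By the first matrix, members of the 9 groups together had a learnt site in 50 of 91 cases (54.9%, 44.7% to 64.8%), and their median fold enrichment was 5.34. Of these 50 sites 18 were in the group of 24, in which 3 peaks had a site by the matrices of other chromosomes. The 156 peaks without a run in common with another gene-distal peak had a site by the first matrix in 89 cases (57.1%, 49.2% to 64.6%) and a median of 4.83. These shares were not compared by the matrices of other chromosomes.

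Long protein-coding genes held the remaining peaks. A peak can be over 4 kb from every TSS and still lie in a gene if the gene is long, and 48 gene-distal peaks (18.4%, 14.2% to 23.5%) did, in 46 genes with a median length of 8537.5 bp (4739 to 19695 bp). Gene bodies made up 18.1% of the sequence that meets the rule. Within them, 40 peaks (83.3%, 70.4% to 91.3%) were centred in a coding exon, 8 in an intron and 0 in a UTR, while coding sequence made up 52.4% of the gene sequence that meets the rule. This coding sequence had a GC content of 43.0%, and the remainder of it 33.1%. The peaks in genes were unlike the intergenic peaks in repetition, since 3 of 48 shared a run with another gene-distal peak, compared with 102 of 213. Their median fold enrichment was 4.48 (quartiles 3.85 and 5.74), against 4.98 (4.21 and 6.90) in intergenic peaks. A learnt site was present in 28 of the 48 (58.3%, 44.3% to 71.2%) and in 116 of the 213 (54.5%, 47.8% to 61.0%). By the matrices of other chromosomes, a site was present in 25 of the 48 and in 98 of the 213. None of these differences was tested.

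The host genes named here were picked after their values had been seen. The largest −log10 q inside a gene, 27.5, was that of the peak in the coding sequence of TPP2 (AT4G20850), a tripeptidyl peptidase, at chr4:11164861-11165581. It was followed by CESA6 (AT5G64740), a cellulose synthase of the primary cell wall, with a fold enrichment of 8.87, ARF6 (AT1G30330), an auxin response factor, with 8.58, and BLH4 (AT2G23760), a BEL1-like homeodomain factor, with 8.80. All of these peaks were in coding exons and had a learnt site, as shown for the first 3.
TPP2, chr4:11165081-11165116 (+): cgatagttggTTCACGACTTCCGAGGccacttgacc
CESA6, chr5:25885567-25885602 (+): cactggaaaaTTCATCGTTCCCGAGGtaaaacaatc
ARF6, chr1:10686145-10686180 (+): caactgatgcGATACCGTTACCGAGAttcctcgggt
Weaker peaks lay in coding exons of BIG (AT3G02260), which is needed for auxin transport, with a fold enrichment of 5.73, and of RHD2 (AT5G51060), the NADPH oxidase of root hair growth, with 5.75. Peaks also lay in BRM (AT2G46020), the ATPase of a SWI/SNF remodelling complex, with 4.86, CHR11 (AT3G06400), an ISWI remodeller, with 3.74, SDG2 (AT4G15180), a histone methyltransferase, with 4.03, CHR4 (AT5G44800) with 3.30 and PKL (AT2G25170), a CHD3 remodeller, with 2.64. The peaks in BIG and SDG2 had no learnt site, and those in BRM, CHR11 and PKL had one. The peak in PKL was among the weakest, at rank 1983 of the 1996 nuclear peaks by fold enrichment and with a −log10 q of 1.94. SPI (AT1G03060), a BEACH domain protein, and AT1G27595, annotated as symplekin, held 2 peaks each.

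A pair of related genes had a peak at a matching sequence. AT4G36080 and AT2G17930, annotated as members of the phosphatidylinositol kinase family and 18261 and 18317 bp long, each had a gene-distal peak in a coding exon, with fold enrichments of 4.29 and 4.10. The sites scored 14.2 and 12.7 bits, 2.5 and 3.5 bp from the summits. The peaks shared a run of 20 bases with each other, but most of the sequence at their summits was not repeated, as 12.2% and 11.0% of the runs occurred more than once.
AT4G36080, chr4:17063789-17063824 (+): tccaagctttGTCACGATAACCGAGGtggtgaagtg
AT2G17930, chr2:7787964-7787999 (+): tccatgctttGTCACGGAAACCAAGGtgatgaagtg

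Gene-distal peaks were also set beside genes that the study linked to PLT function. For its 334 direct PLT targets, the study required a binding site within 4 kb that was found in at least 2 binding data sets. It then kept genes that rose when a PLT gene was overexpressed. A gene-distal peak is over 4 kb from every protein-coding TSS and could not itself have placed a gene on that list. The list and the rule are thus not independent. Of all 27444 protein-coding genes, 224 (0.816%) were the nearest to or the host of a gene-distal peak, and of the 334 targets 1 was. This was CRF3 (AT5G53290), a cytokinin response factor of the AP2/ERF family, which is also among the 197 core genes of the study. It had 2 such peaks upstream, at chr5:21623579-21623964, 4490 bp from the TSS, with a fold enrichment of 3.69, and at chr5:21626371-21626623, 7215.5 bp from it, with 6.04. Both had a site. Of 50 regulators of meristems and the embryo compiled from textbook knowledge, with the PLT family included, 1 had such a peak, and neither count was tested against that share. This was TPL (AT1G15750), a co-repressor of transcription, in which the peak at chr1:5416357-5416573 lay in a coding exon and had a −log10 q of 5.56 and a fold enrichment of 5.07.
CRF3, chr5:21623769-21623804 (−): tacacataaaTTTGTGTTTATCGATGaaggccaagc
CRF3, chr5:21626474-21626509 (−): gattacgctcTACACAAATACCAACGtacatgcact
TPL, chr1:5416438-5416473 (−): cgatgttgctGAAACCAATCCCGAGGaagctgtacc
The site in TPL scored 10.6 bits and those at CRF3 scored 8.74 and 9.70 bits.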

How the data were processed

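DAP-seq was performed by the authors on root DNA with 3xFLAG-PLT3 and with 3xFLAG-EGFP, 1 library each, and the EGFP library entered only as their control for peak calling. Their processing notes name fastp 0.23.2, BWA 0.7.17, SAMtools 1.15 and MACS3 3.0.0a7 with TAIR10. Reads with a mapping quality below 30 were removed and peaks called at a q-value of 0.05. The deposited list gives for each peak the fold enrichment as a linear ratio and −log10 of p and q, as the authors' peak caller wrote them. An integer score deposited by the authors repeats −log10 q and was not used. No read counts are given, so intervals cover counting error over peaks only.

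Genes and sequence came from TAIR10.1, in which the nuclear chromosomes have the same lengths as in TAIR10, with 27444 protein-coding genes among 37899. Positions are 1-based. Of 2036 peaks, 40 on organellar genomes were left out. Each centre was put in 1 feature class. The matrix was learnt by expectation maximisation on both strands and the method was tested on simulated data. Runs of 20 bases were compared in 200 bp at the summits, on both strands, and peaks linked by a run formed a group. Wilson intervals are at 95%. The 2 tests were the exact binomial test of sites and the exact sign test of GC. The peaks, gene lists and tests were chosen with earlier results of these data known. Named peaks were the 10 with the largest −log10 q, the 5 with the largest fold enrichment, the 5 farthest from a TSS, those beside the distance limit, the best sites, groups of 3 or more and listed genes, and not every one is printed. Further host genes and peaks were named after their values had been seen. Alternatives were other q-value thresholds, distance limits, windows, thresholds and matrices, and summits in place of centres. The software was scipy 1.17.1, networkx 3.6.1, pandas 2.3.3, numpy 2.4.6 and matplotlib 3.10.9 under Python 3.11.15.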

Additional observations from a re-analysis of the deposited data

Results flagged for a closer look

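Outside the nuclear genome, 40 peaks were called over the EGFP control, 28 on the mitochondrial and 12 on the chloroplast genome. They were not analysed here.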

How the results depend on the processing

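The direction of both tests was the same, and p stayed below 0.05, under every alternative tried. The share of peaks with a site at the summit ranged from 28.4% (a threshold passed by 1% of training flanks, with 2.30% of downstream windows) to 62.6% (a q-value of 1e-05 or less), and the p of the exact binomial test was at most 3.59e-17. The median difference in GC ranged from 4.5 to 8 points. With a q-value of 1e-05 or less, 139 peaks remained, with a median fold enrichment of 6.41. With a limit of 3000 bp there were 347 peaks, of which 27.7% were inside protein-coding genes and 51.0% in gene-poor windows, and with a limit of 5000 bp 200 peaks, of which 7.5% and 79.5% were. Gene-poor windows held 41.0% of the peaks when defined by fewer than 5 TSSs per 100 kb, and 56.3% by fewer than 50 per 500 kb. The share of the sequence that meets the rule was not computed under these other limits and windows. An excess of peaks over that share therefore cannot be read from them. With a run of 30 bases, 28.0% of the peaks shared sequence. The matrices of other chromosomes, the peaks without the group of 24 and 1 peak per group were chosen after seeing the data, and with 1 peak per group 55.2% of 172 peaks had a site. Both tests were paired within peaks, but no pairing of libraries was possible because there was 1 library per protein. The depth is unknown, so a distal site with no peak may lie below what this library could detect, and reads from repeated sequence were lost to the mapping filter.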

Other observations

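Peaks close to each other on chromosome 5 combined a low fold enrichment with a high −log10 q. At chr5:11185552-11185908 these values were 2.56 and 22.5, and at chr5:11186258-11186623 they were 4.22 and 29.4. The first had the lowest fold enrichment of the 261 gene-distal peaks. At the summits of both, every run of 20 bases occurred elsewhere in the genome. These peaks were chosen after their values had been seen.

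A copy of at least 30 bases in the same orientation lay within 15 kb of the summit in 51 gene-distal peaks, at a median distance of 1948 bp. Of the 16 groups linked by a shared run, 7 were pairs.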
